A study of Mus musculus with 4 samples.

Results

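Immediate early genes that are not AP-1 subunits were followed in ASZ001, a mouse basal cell carcinoma (BCC) cell line, after enforced expression of c-FOS. The 9 genes, namely Egr1, Egr2, Egr3, Ier2, Ier3, Ier5, Nr4a1, Srf and Zfp36, were taken by symbol from the 24907 genes of the count table, and each had a row. The groups were c-FOS cells, which carried a doxycycline-inducible vector encoding c-FOS, and control cells with the empty form of that vector. All cells of both groups received doxycycline. RNA-seq was done on 2 libraries per group, with 29200592 and 32465409 counts in the c-FOS libraries and 28405433 and 29822437.5 in the control libraries. No c-FOS vector cells without doxycycline were analysed here, so induced c-FOS and any other difference between the cell populations cannot be told apart. The sources used here do not give the dose or duration of doxycycline, whether the lines were clones or pools, or whether replicates were separate cultures. The p-values therefore measure only the spread between these libraries, which may be technical.

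Immediate early genes are transcribed within minutes of a growth factor or stress signal, without new protein synthesis, and their transcripts are mostly short-lived. The ERK and p38 kinase cascades act on ternary complex factors bound to the serum response factor SRF at CArG boxes, and through ribosomal S6 and related kinases on CREB at cyclic AMP response elements (CREs). FOS and JUN genes are induced by the same routes and form AP-1, whereas the genes described here encode other transcription factors, an RNA-binding protein and the IER proteins. In the epidermis such genes are known for rapid induction by wounding, growth factors and ultraviolet light.

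Promoter sequences are shown because several of these genes share elements of that route. The RefSeq promoter table (build GRCm38.p6), whose windows run from 250 bases before to 50 bases after a transcription start, held 6 of the 9 genes. The last 150 bases before the start are printed 5′ to 3′ on the gene's strand, with capitals marking matches, on either strand, to the CArG box, to the CRE core TGACG, to the EGR motif GCGNGGGCG, to the AP-1 motif TGANTCA or to the NBRE motif AAAGGTCA, to which NR4A receptors bind. Zfp36, Srf and Nr4a1 are genes that were lower in c-FOS cells, Ier3 and Ier5 are genes that were higher, and Egr2 is one that was nearly undetected.
Zfp36, chr7:28379229-28379378, minus strand: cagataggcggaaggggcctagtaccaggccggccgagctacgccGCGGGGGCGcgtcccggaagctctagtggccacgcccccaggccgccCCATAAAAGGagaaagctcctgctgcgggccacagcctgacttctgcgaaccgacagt
Srf, chr17:46556163-46556312, minus strand: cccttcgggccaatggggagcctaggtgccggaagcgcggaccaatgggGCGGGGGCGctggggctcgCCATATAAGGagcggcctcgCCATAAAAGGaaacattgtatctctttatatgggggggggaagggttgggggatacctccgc
Nr4a1, chr15:101266696-101266845, plus strand: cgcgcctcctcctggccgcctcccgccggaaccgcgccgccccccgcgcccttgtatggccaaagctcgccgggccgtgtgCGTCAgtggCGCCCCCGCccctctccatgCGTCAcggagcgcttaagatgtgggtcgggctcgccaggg
Ier3, chr17:35821563-35821712, plus strand: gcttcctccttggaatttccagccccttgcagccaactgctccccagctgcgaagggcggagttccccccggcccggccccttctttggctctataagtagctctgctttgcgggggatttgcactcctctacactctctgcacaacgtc
Ier5, chr1:155099637-155099786, minus strand: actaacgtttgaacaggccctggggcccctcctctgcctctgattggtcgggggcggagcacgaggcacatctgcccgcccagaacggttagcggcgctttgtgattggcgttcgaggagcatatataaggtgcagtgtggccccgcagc
Egr2, chr10:67537719-67537868, plus strand: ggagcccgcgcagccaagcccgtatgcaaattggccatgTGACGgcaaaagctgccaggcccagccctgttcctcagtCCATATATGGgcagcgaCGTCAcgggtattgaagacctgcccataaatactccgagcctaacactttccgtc

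A CArG box was read as an exact match to CCWWWWWWGG, where W is A or T. Sequences that differ from these letters were not counted. CArG boxes were found in 3 of the 6 genes, against 1.63% of all 32851 promoter windows. Zfp36 had 1 that began at position -58 from the start. Srf had 2, which began at -82 and -62, so the gene for the CArG-binding factor carries the motif itself. Egr2 had 1 at -72 in the window shown, and 4 of its 5 annotated start windows held one. The window shown for Egr2 was chosen for having the most motif matches. The other genes had 1 window each, so only for Egr2 is a gene with several windows set against a share per window. The EGR motif was found in Zfp36 at -105, in Srf at -101 and in Nr4a1 at -60, against 5.55% of all windows. CRE cores were found in Nr4a1, at -233, -213, -69 and -40, in Egr2 at -111 and -55 and in Srf at -201, against 20.8% of all windows. No matches overlapped each other. Neither the AP-1 motif, held by 7.81% of all windows, nor the NBRE motif, held by 1.51%, was found in the 6 genes. The windows of Ier3 and Ier5 held none of the 5 motifs. A match is a description of letters, and none of these sites was tested for binding here.

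**Figure D1:**
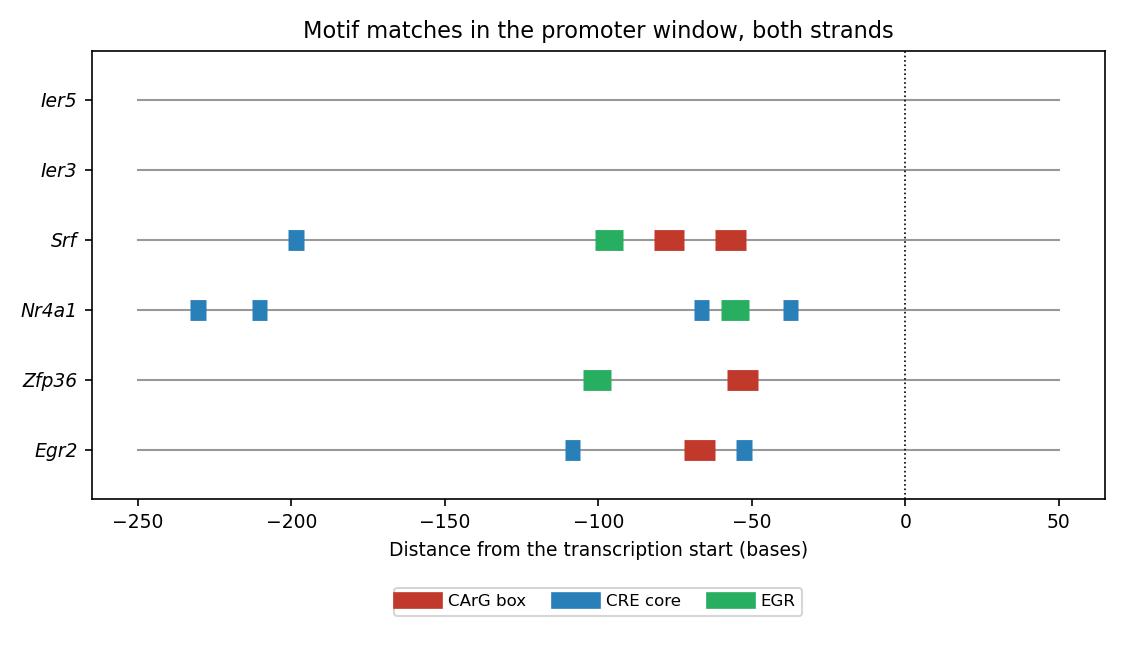
Motif matches on either strand in the promoter windows of 6 genes, by distance from the transcription start in bases (x axis). Coloured blocks are CArG boxes, CRE cores and EGR motifs. Srf, Zfp36 and Egr2 carry CArG boxes within 100 bases of the start. Nr4a1 carries CRE cores and an EGR motif but no exact match to the CArG box, and Ier5 and Ier3 carry no match.

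The c-FOS libraries were first checked by Fos itself, which had 296.8 and 313.3 CPM in c-FOS cells, against 0.403 and 0.351 CPM in control cells. CPM are counts-per-million, here scaled by TMM factors, which set the libraries on a common level. Keratinocyte markers were abundant in both groups and lower in c-FOS cells, with the summed level of 7 markers at 11744 and 12271 CPM in c-FOS cells and 24880 and 24859 CPM in control cells; 6 of them were lower and Itga6 was higher. The summed level of 8 fibroblast markers was 17.7 and 19.2 CPM in c-FOS cells, against 5.38 and 5.62 CPM in control cells, with 3 of 4 tested higher and Thy1 at 0 in the 4 libraries. Dcn, too low to be tested, had 4 and 3.5 deposited counts in c-FOS cells and 8.5 and 18.5 in control cells, and Col3a1 and Lum had at most 1. The summed level of 7 macrophage and leukocyte markers was 41.4 and 44.9 CPM in c-FOS cells, against 18.8 and 17.0 CPM in control cells, with 3 of 3 tested higher and Tyrobp at 0. Most of that difference was Csf1r, at 18.4 and 18.5 CPM in c-FOS cells and 0.403 and 0.224 CPM in control cells, and Ptprc, Itgam and Aif1 had at most 2.5 deposited counts in a library. The sum over 6 endothelial markers was 102.9 and 102.2 CPM in c-FOS cells, against 83.7 and 80.3 CPM in control cells, nearly all of it Pecam1, with 2 of 2 tested higher and Kdr, Emcn and Tie1 at 0. The part of these markers in the results below was not tested. In bulk RNA, fewer cells of a type and less RNA per cell cannot be told apart.

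Of the 9 genes, 7 passed the filter on low counts, and their transcripts did not move together with c-FOS. Ier3 and Ier5 rose, Zfp36, Nr4a1, Ier2 and Srf fell, and Egr1 did not pass the test. Thus 6 of 7 had an adjusted p under 0.05 (edgeR quasi-likelihood fit over all genes, Benjamini-Hochberg), in a comparison where 67.2% of all 12780 tested genes did so. In that background 33.8% of tested genes were higher and 33.4% lower in c-FOS cells, with 50.4% of the called genes higher, or 35.4% when libraries were scaled by their totals. The c-FOS and control libraries did not overlap for 6 of the 7 genes, against 83.6% of all tested genes. None of the 7 passed with a change of 2-fold or more, which 15.5% of all tested genes did. The median log2 fold change of the 7 was -0.33, against -0.0060 over all tested genes, and the median absolute log2 fold change was 0.38, against 0.32.

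**Figure D2:**
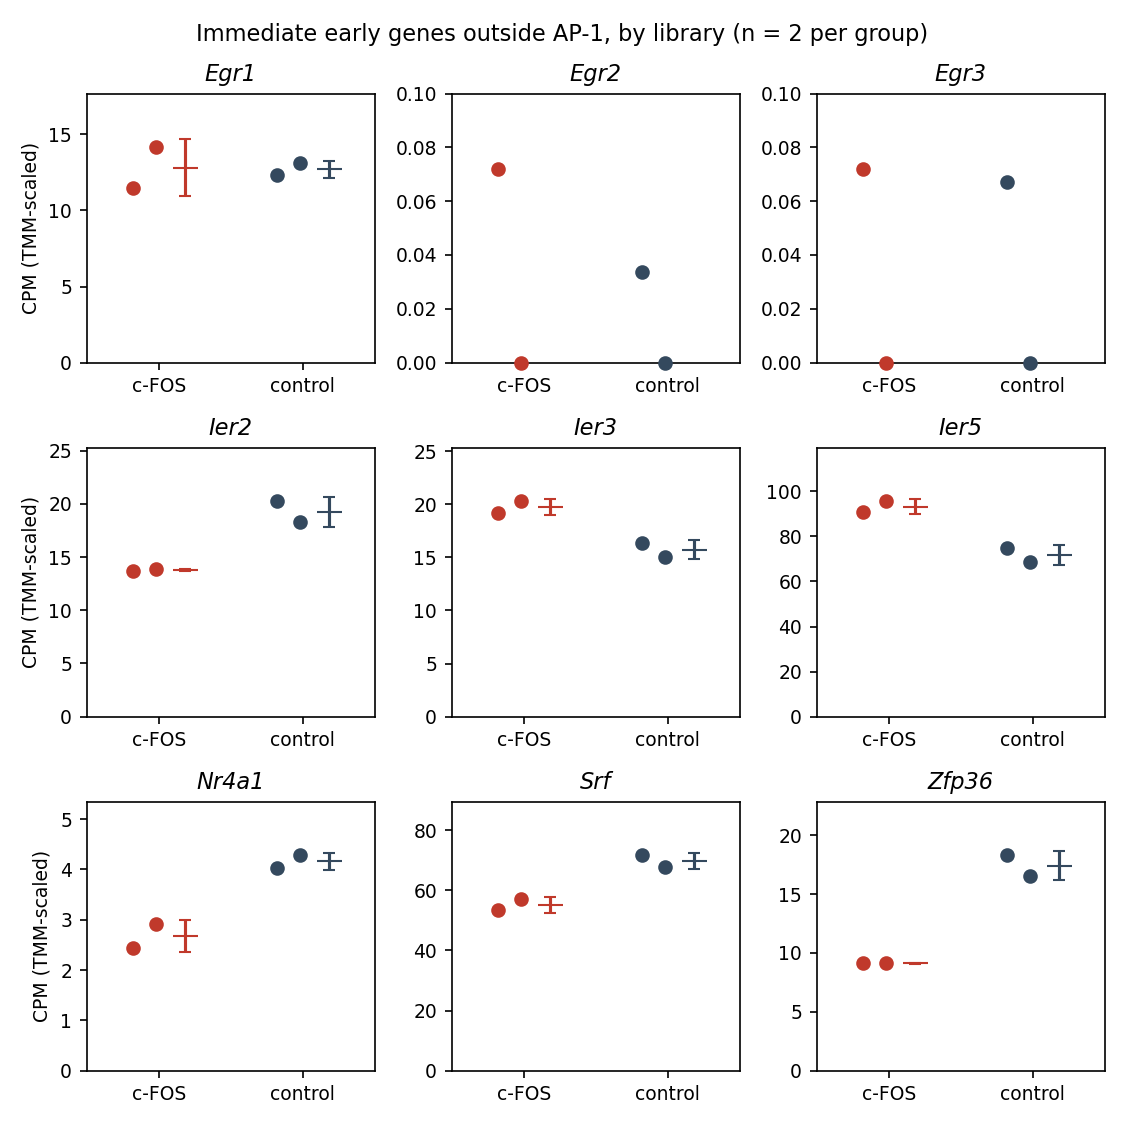
TMM-scaled CPM (y axis, linear from 0) of the 9 immediate early genes in c-FOS and control libraries; points are libraries, and for the 7 tested genes horizontal bars with whiskers are the mean ± SD (n = 2). The groups are apart for Ier2, Ier3, Ier5, Nr4a1, Srf and Zfp36 and overlap for Egr1, Egr2 and Egr3.

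Among the transcription factors, the EGR genes encode zinc finger proteins that bind GC-rich sites and regulate growth, differentiation and wound repair. Egr1, the most broadly expressed of them, had 319 and 438.5 deposited counts in c-FOS cells, against 366.5 and 410 in control cells. These were 11.5 and 14.1 CPM in c-FOS cells and 12.3 and 13.1 CPM in control cells, so the control libraries lay between the c-FOS libraries. The log2 fold change was 0.015 ± 0.10 (SE), with a 95% interval from -0.21 to 0.24 (edgeR, adjusted p = 0.907). That interval, from 2 libraries per group, held values of either sign, so no direction is given for Egr1. How small a change could be detected was not tested. Egr2, known for myelination and immune tolerance, had 2.5 and 0 deposited counts in c-FOS cells and 1 and 0 in control cells. Egr3, which acts in muscle spindles and lymphocytes, had 2 and 0 in c-FOS cells and 1.5 and 0 in control cells. Both groups were at or under 3 counts for these genes, and no fold is given. Egr4, the remaining paralogue, had 0 in both c-FOS libraries and 2 and 0 in control cells. Egr1 was thus the EGR gene with more than a few reads in either group.

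Nab1 and Nab2 encode corepressors that bind EGR proteins, and Nab2 is known as a target of EGR1 that limits its activity. Nab2 had 28.8 and 31.9 CPM in c-FOS cells, against 60.4 and 53.7 CPM in control cells. It fell by 0.91 ± 0.07 (SE) on the log2 scale. Nab1 had 104.3 and 107.9 CPM in c-FOS cells, against 89.4 and 91.0 CPM in control cells, a log2 fold change of 0.23 ± 0.04. The corepressor genes thus went in opposite directions while Egr1 did not pass.

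Nr4a1 encodes NUR77, an orphan nuclear receptor induced by mitogens and apoptotic stimuli. It was the least abundant of the tested genes, with 2.44 and 2.90 CPM in c-FOS cells and 4.03 and 4.28 CPM in control cells. Both c-FOS libraries lay below both control libraries, and Nr4a1 fell by 0.63 ± 0.16 (SE) on the log2 scale (edgeR, adjusted p = 0.00278). In DESeq2 it missed the threshold at nearly the same size, with a log2 fold change of -0.63 ± 0.29 (SE) and an adjusted p of 0.0566, and the alternatives gave adjusted p-values between 0.000179 and 0.0566. Its paralogue Nr4a3 had 2.23 and 2.65 CPM in c-FOS cells, against 4.20 and 4.92 CPM in control cells, and fell by 0.90 ± 0.16. Nr4a2, the third receptor of the family, had 10.2 and 10.3 CPM in c-FOS cells and 11.4 and 11.4 CPM in control cells. Its log2 fold change was -0.15 ± 0.09 (SE), which did not pass (edgeR, adjusted p = 0.152). It passed as lower under library totals and under upper-quartile scaling, and its value over the alternatives ran from -0.29 to -0.13.

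Srf encodes serum response factor, which binds CArG boxes of immediate early genes together with ternary complex factors and of cytoskeletal genes together with myocardin-related factors. Srf had 53.3 and 57.1 CPM in c-FOS cells, against 71.6 and 67.8 CPM in control cells. Both c-FOS libraries were lower, and Srf fell by 0.33 ± 0.05 (SE) on the log2 scale. The adjusted p from edgeR was 6.2e-05.

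Transcripts of the SRF coactivators went the other way from Srf or did not pass. Of the 3 ternary complex factor genes, Elk3, whose product represses until phosphorylated, had 232.4 and 232.1 CPM in c-FOS cells, against 92.7 and 90.1 CPM in control cells, a log2 fold change of 1.35 ± 0.04 (SE). Elk1, a direct ERK substrate, had 38.5 and 39.2 CPM in c-FOS cells and 31.1 and 27.8 CPM in control cells. Its log2 fold change was 0.40 ± 0.07. Elk4 had 55.5 and 51.3 CPM in c-FOS cells, against 56.7 and 56.6 CPM in control cells. With a log2 fold change of -0.087 ± 0.05, Elk4 was not called (edgeR, adjusted p = 0.15). It was called lower under library totals and under upper-quartile scaling. Mkl1 and Mkl2, which encode the actin-regulated myocardin-related factors, had log2 fold changes of 0.11 ± 0.04 and 0.16 ± 0.04 and were called higher. Mkl1 was the weakest of these calls (edgeR, adjusted p = 0.034). It was lost with library totals, where its log2 fold change was -0.031, and in several other alternatives, and Mkl2 was not called with library totals (0.026) or without c-FOS replicate 1. Myocd, the muscle form, had 0.5 and 0 deposited counts in c-FOS cells and 0 in both control libraries. Of 5 tested coactivator genes, 4 were thus higher and 0 lower, with a median log2 fold change of 0.16. That called share of 80% stood against 67.2% of all tested genes. With library totals 2 were higher and 1 lower, with a median of 0.026.

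Cytoskeletal genes known as SRF targets were for the most part higher in c-FOS cells. Of 15 listed genes 11 were tested, and 8 were higher, 1 lower and 2 not called, with a median log2 fold change of 0.24. With library totals 6 were higher and 2 lower, with a median of 0.11. In the main fit 81.8% were called, against 67.2% of all tested genes. Cnn2 and Tpm1 lost their calls with library totals. Vcl, the gene of vinculin at focal adhesions, had 456.0 and 451.1 CPM in c-FOS cells and 174.6 and 177.6 CPM in control cells. Flna, the actin crosslinker filamin A, had 819.2 and 816.1 CPM in c-FOS cells and 408.1 and 443.4 CPM in control cells, and Fhl2, an SRF cofactor and target, rose by 0.44 ± 0.05 (SE) on the log2 scale. Tagln2 was lower, at 289.4 and 306.3 CPM in c-FOS cells and 374.5 and 364.8 CPM in control cells. Tpm2 had 266.1 and 266.0 CPM in c-FOS cells, against 276.8 and 273.6 CPM in control cells, and was called lower only under library totals and upper-quartile scaling, among the alternatives run. The smooth muscle genes Acta2, Tagln, Cnn1 and Myl9 had at most 7 deposited counts in any library.

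The Ier genes share a name from their rapid induction rather than one protein family. Ier2 and Ier5 encode related nuclear proteins, and IER5 is known to act on heat shock factor 1. Ier2 had 13.7 and 13.9 CPM in c-FOS cells, against 20.2 and 18.3 CPM in control cells. Both c-FOS libraries were lower, and Ier2 fell by 0.48 ± 0.08 (SE) on the log2 scale (edgeR, adjusted p = 0.000202). Ier5 had 90.9 and 95.6 CPM in c-FOS cells, against 74.9 and 68.5 CPM in control cells. Both c-FOS libraries were higher, with a log2 fold change of 0.38 ± 0.05 (SE) and an adjusted p of 1.71e-05 in edgeR. The related genes Ier2 and Ier5 therefore went in opposite directions. Ier5l, the paralogue of Ier5, had 82.7 and 85.0 CPM in c-FOS cells and 68.7 and 60.3 CPM in control cells, with a log2 fold change of 0.38 ± 0.06 (SE).

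Ier3 encodes IEX-1, a short-lived stress protein that acts in ERK signalling and cell survival. It had 19.2 and 20.3 CPM in c-FOS cells, against 16.4 and 15.1 CPM in control cells. Both c-FOS libraries were higher, with a log2 fold change of 0.33 ± 0.08 (SE) and an adjusted p of 0.00267 in edgeR. Its smallest value over the alternatives was 0.19, with library totals, where it was called only narrowly (edgeR, adjusted p = 0.047).

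Zfp36 encodes tristetraprolin, a zinc finger protein that binds AU-rich elements of short-lived transcripts and speeds their decay. It had 254.5 and 282.5 deposited counts in c-FOS cells, against 544 and 518.5 in control cells. The CPM values were 9.13 and 9.10 in c-FOS cells and 18.3 and 16.5 in control cells. It had the largest change of the 7 tested genes, falling by 0.93 ± 0.09 (SE) on the log2 scale, with a 95% interval from -1.13 to -0.74 (edgeR, adjusted p = 8.48e-07). The estimate lay just inside 2-fold and crossed it with library totals (-1.07) and, narrowly, without control replicate 2. In the GENCODE annotation of another build the antisense gene Gm44710 overlaps an exon of Zfp36, and it has no row in the count table. The sources used here do not say whether counting used strand, so reads of the pair cannot be told apart.

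The paralogues of Zfp36, which bind similar elements, did not follow it as a group. Zfp36l1 had 177.9 and 180.0 CPM in c-FOS cells, against 241.0 and 226.9 CPM in control cells, and fell by 0.39 ± 0.04 (SE) on the log2 scale. Zfp36l2 had 78.5 and 79.5 CPM in c-FOS cells, against 51.1 and 47.6 CPM in control cells, a log2 fold change of 0.68 ± 0.05. Across the 7 tested paralogues and corepressors of the EGR, Ier5, NR4A and ZFP36 families, 3 were higher, 3 lower and 1 not called. The called share was 85.7%, against 67.2% of all tested genes, and the median log2 fold change was -0.15. With library totals 3 were higher and 4 lower, with a median of -0.29.

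Transcripts known to be bound by tristetraprolin, a list of 14 that includes Ier3, went both ways. Of these 8 were tested, and 5 were higher, 1 lower and 2 not called, with a median log2 fold change of 0.45. With library totals 4 were higher and 2 lower. The called share of 75% was near the 67.2% of all tested genes. Ptgs2, which encodes the prostaglandin synthase COX-2, had 315.0 and 304.0 CPM in c-FOS cells, against 37.5 and 41.3 CPM in control cells. Ccnd1, which encodes cyclin D1, had 382.2 and 381.8 CPM in c-FOS cells, against 133.4 and 142.5 CPM in control cells. Cxcl1, a neutrophil chemokine, had 47 and 47.5 deposited counts in c-FOS cells and 30 and 35.5 in control cells. Its call (edgeR, adjusted p = 0.0394) was lost in DESeq2, with library totals and in other alternatives. Vegfa, the vascular growth factor gene, was lower, at 27.9 and 27.4 CPM in c-FOS cells and 42.2 and 40.2 CPM in control cells. Tnf, the best-known target, had 9 and 5 deposited counts in c-FOS cells and 0.5 and 2 in control cells, too few to be tested.

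**Figure D3:**
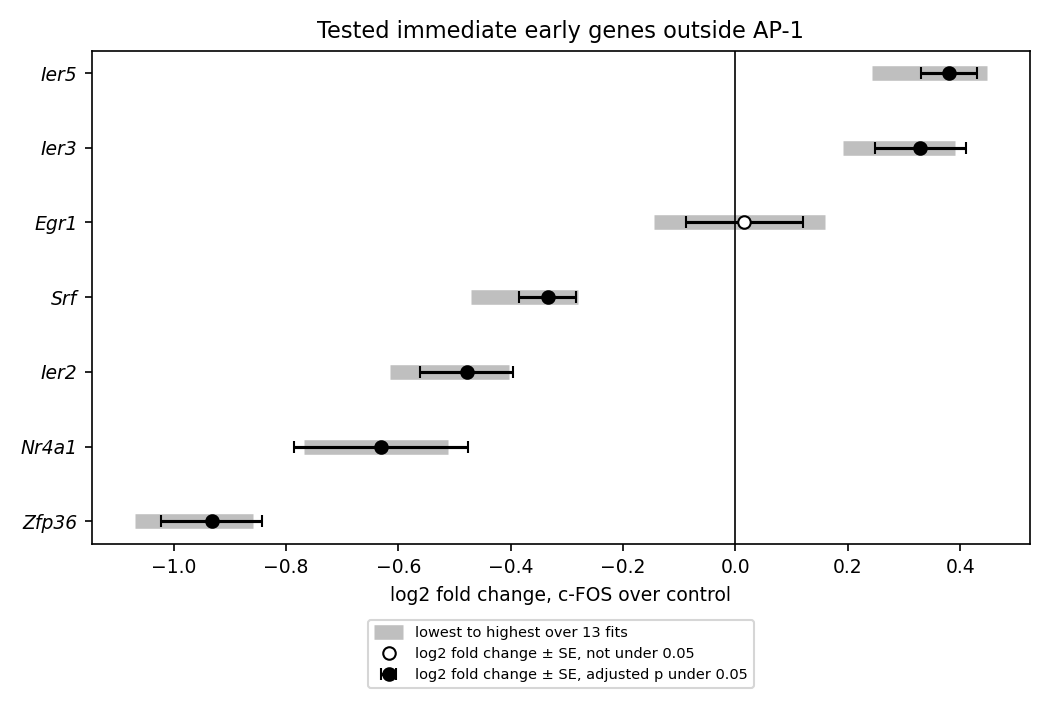
Log2 fold change, c-FOS over control (x axis), of the 7 tested immediate early genes; points with whiskers are the estimate ± SE of the edgeR fit, filled where the adjusted p is under 0.05, and grey bands run from the lowest to the highest value over that fit and its alternatives. Zfp36 lies at -0.93 and Ier5 at 0.38, and the band of Egr1 crosses 0.

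Levels of different genes were compared as CPM per kilobase of the deposited gene length. In c-FOS cells Ier5 stood first at 28.5 ± 1.00 CPM per kilobase (SD, n = 2), followed by Ier3 at 18.2 ± 0.699 and Srf at 13.5 ± 0.655. Below them came Ier2 at 9.09 ± 0.0685, Zfp36 at 5.18 ± 0.0115, Egr1 at 4.17 ± 0.615 and Nr4a1 at 1.08 ± 0.132 CPM per kilobase. In control cells Ier5 stood first as well, at 21.9 ± 1.39 CPM per kilobase (SD, n = 2), followed by Srf at 17.1 ± 0.661, Ier3 at 14.5 ± 0.847, Ier2 at 12.7 ± 0.919, Zfp36 at 9.89 ± 0.702, Egr1 at 4.14 ± 0.181 and Nr4a1 at 1.68 ± 0.0701. Ier3 stood above Srf in c-FOS cells and below it in control cells, and the other 5 kept their place. Neighbours in either order did not overlap between libraries, except Egr2 and Egr3, which stood at the bottom with at most 0.0243 CPM per kilobase in a library.

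The kinases and CREB factors that act upstream went both ways. Of 14 tested genes, 3 were higher, 3 lower and 8 not called, with a median log2 fold change of -0.032. With library totals 3 were higher and 10 lower, with a median of -0.17. The called share in the main fit was 42.9%, below the 67.2% of all tested genes. Map2k1, which encodes the ERK kinase MEK1, had 103.1 and 100.6 CPM in c-FOS cells, against 68.3 and 67.6 CPM in control cells. Rps6ka2 and Mapk3, which encode an S6 kinase and ERK1, had log2 fold changes of 0.52 ± 0.05 and 0.31 ± 0.05 (SE). Rps6ka1, another S6 kinase gene, had 57.4 and 61.6 CPM in c-FOS cells, against 121.2 and 114.4 CPM in control cells. Creb1, which encodes a CRE-binding factor, fell by 0.30 ± 0.04 (SE) on the log2 scale.

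Other genes of the immediate early class outside AP-1 included larger changes in both directions. Of 29 tested genes, 19 were higher, 6 lower and 4 not called, with a median log2 fold change of 0.55. With library totals 18 were higher and 6 lower, with a median of 0.41. The called share was 86.2%, against 67.2% of all tested genes, of which 33.8% were higher and 33.4% lower. Sgk1, a serum- and glucocorticoid-induced kinase gene, had 935.9 and 996.9 CPM in c-FOS cells, against 97.5 and 99.0 CPM in control cells. Gadd45a, a growth arrest gene induced by DNA damage, had 76.0 and 79.7 CPM in c-FOS cells, against 8.34 and 8.43 CPM in control cells. Ptgs2, given above, belongs to this list too, with a log2 fold change of 2.97 ± 0.05 (SE). The antiproliferative gene Btg2 had 6.83 and 7.49 CPM in c-FOS cells, against 36.1 and 32.4 CPM in control cells, and fell by 2.26 ± 0.09 (SE) on the log2 scale. Sik1, a salt-inducible kinase gene regulated by CREB, had 95.8 and 94.6 CPM in c-FOS cells, against 250.7 and 229.6 CPM in control cells, and Gem, which encodes a small GTP-binding protein, fell by 1.12 ± 0.20 on the same scale. These 6 were named because they were the 3 highest and 3 lowest called genes of the 29, so their size does not stand for the list. The median absolute log2 fold change was 0.73 over the 29 genes, against 0.38 over the 7 tested genes described above and 0.32 over all tested genes. The lists were chosen with earlier results of these data known, so this difference does not stand for immediate early genes at large.

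**Figure D4:**
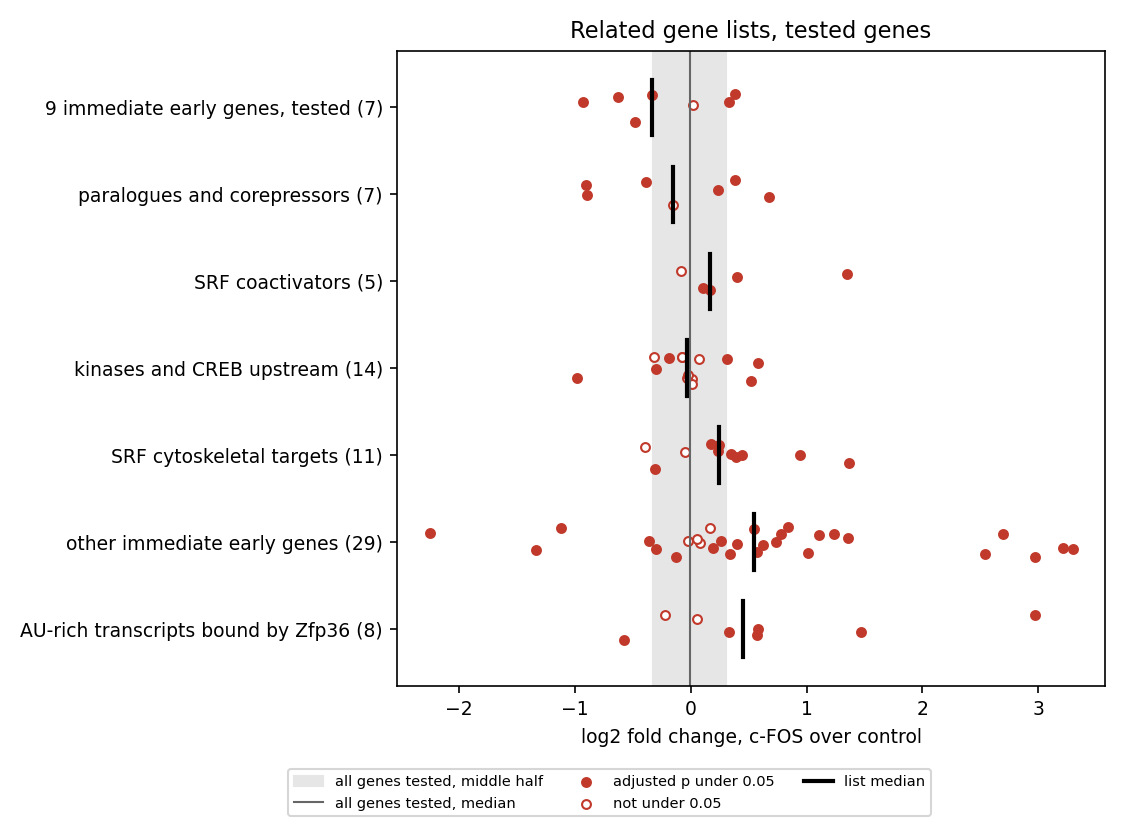
Log2 fold change, c-FOS over control (x axis), of the tested genes of 7 lists, with the number tested in brackets; filled points have an adjusted p under 0.05, black bars are list medians, and the grey band and line are the quartile range and median over all tested genes. The medians run from -0.33 for the 7 tested immediate early genes described here to 0.55 for the other immediate early genes. Some lists share genes, and all were chosen with earlier results of these data known.

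The genes whose pattern over the 4 libraries was most like that of Zfp36 were Erbb3, Sema3f and Nop53, among 9287 tested genes with a mean of 10 CPM or more. The root mean square difference in centred log2 CPM was 0.0114 for Erbb3, 0.0195 for Sema3f and 0.0202 for Nop53. With 2 groups of 2 libraries, this likeness describes a fall of similar size. Erbb3 had 40.5 and 39.7 CPM in c-FOS cells, against 79.5 and 72.9 CPM in control cells.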

How the data were processed

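RNA-seq was done on 4 libraries of ASZ001 cells, 2 c-FOS and 2 control, grouped by their titles in the labels. Per the labels' protocols, RNA was column-purified and libraries were made with a TruSeq RNA kit from Illumina. According to the series design text, TopHat was followed by HOMER, and the submitters' processing notes name build mm9 and DESeq2. The sources used here give no versions, annotation or strand setting. The authors deposited unnormalized expected counts per gene symbol in steps of 0.5, with 48.0% of the values above 0 not whole. They were rounded to whole numbers. Of 24909 rows, 2 repeated a symbol, and the row with the higher total was used.

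Genes were filtered by group with filterByExpr (at least 10 counts, at least 15 in total), scaled by TMM and tested two-sided, c-FOS against control, with the quasi-likelihood F test of edgeR 4.0.16 in R 4.3.3. Adjustment was by Benjamini-Hochberg over 12780 genes, with a threshold of 0.05. The fit was checked on simulated counts with known changes. SEs come from the F statistic and intervals from its moderated degrees of freedom; CPM errors are SD over n = 2. Replicates differed by more than sampling noise (chi-square per degree of freedom 1.98 in c-FOS and 5.01 in control). Alternatives were RLE, library-total and upper-quartile scaling, DESeq2 1.42.0, no filter, a filter of 50 counts in 2 libraries, rounding down, a replicate block and leaving out each library. The 9 genes and all lists were chosen with earlier results of these data known. Named genes were the 9, the whole paralogue and coactivator lists, up to 3 highest and 3 lowest called genes of each other list, and the 3 nearest neighbours of the gene with the largest change. One gene that this rule names is not reported here. Markers, Tpm1, Tpm2, Cnn2, Acta2, Tagln, Cnn1, Myl9 and Tnf were named after their values were seen. Of 24907 symbols, 24793 were found in the RefSeq gene table of GRCm38.p6.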

Additional observations from a re-analysis of the deposited data

How the results depend on the processing

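Over 12 alternatives, Ier2, Ier3, Ier5, Srf and Zfp36 kept their direction and an adjusted p under 0.05 in each. Nr4a1 kept its direction, and missed the threshold in DESeq2 (-0.63, adjusted p = 0.0566), which lowered the number of the genes called to 5. Egr1 passed in none; its log2 fold change of 0.015 was -0.12 under library totals and -0.048 under upper-quartile scaling, and ran from -0.14 without c-FOS replicate 2 to 0.16 without c-FOS replicate 1. Library totals moved the median log2 fold change over all tested genes to -0.14, and Egr1 lay near that median. Ier3 and Ier5 were still higher there, at 0.19 and 0.24, down from 0.33 and 0.38 in the main fit. The call of Ier3 was close to the threshold there (edgeR, adjusted p = 0.047). The number of genes called over the whole table lay between 7062 of 14217 tested (DESeq2) and 9061 of 12780 tested (library totals). The labels give the groups the same replicate numbers without saying what a number marks. Same-numbered libraries had deviations with a correlation of -0.064 over genes, and with the number as a replicate block 8453 genes and 6 of the 7 were called. With 2 libraries per group, the 95% interval of Egr1 in the main fit held values of either sign. Egr2 and Egr3 had too few counts to be compared.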
